A study of Mus musculus with 8 samples.

Results

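The nascent RNA of 6 genes differed strongly between cells carrying wild-type CTCF and cells carrying a mutated CTCF, and is described here across all libraries of the study. The genes are Ebf1, Hivep3, Tbx4, Vmn2r1, Gm42951 and Gm46392, 6 of the 16940 genes with values. They were chosen by their difference between the mutated and the wild-type CTCF lines with IAA, so that difference is a description of how they were picked and carries no test. All 6 had a mean of at least 10 normalized reads over the 8 libraries and were among the 15818 genes tested.

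Transient transcriptome sequencing (TT-seq) reads RNA made during a short pulse of 4-thiouridine, a uridine analogue that is built into new transcripts and allows them to be captured. The cells were E14 mouse embryonic stem cells grown without serum, with leukemia inhibitory factor, PD0325901 and CHIR99021, and labelled for 15 min at 400 µM. All of them carried CTCF AID, in which CTCF is fused to an auxin-inducible degron and is degraded when the auxin IAA is added. The 4 groups, each with 2 replicates, were an overexpression control without IAA, the same control with 12 h of IAA, overexpressed wild type CTCF with 12 h of IAA, and overexpressed mutated CTCF with 12 h of IAA. The labels do not name the mutation, do not say whether a line is a single clone, and do not say whether replicates were separate cultures, so p-values measure only the spread between these samples. Wild-type and mutated CTCF were not measured without IAA.

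CTCF is a zinc-finger protein that binds a conserved DNA motif and, with cohesin, anchors chromatin loops that can bring enhancers to promoters or keep them apart. The 6 genes have little in common by function. Ebf1 encodes a helix-loop-helix transcription factor that specifies B lymphocytes and also acts in adipose tissue and neurons. Hivep3 encodes a large zinc-finger protein, also called Schnurri-3, known for limiting bone formation by osteoblasts. Tbx4 encodes a T-box transcription factor of the hindlimb and lung. Vmn2r1 encodes a type 2 vomeronasal receptor, a family of pheromone receptors of sensory neurons. Gm42951 and Gm46392 are annotated long intergenic noncoding RNAs with no established role. None of these genes is a marker of embryonic stem cells. Ebf1, Hivep3 and Gm46392 are long genes, longer than 97.8%, 97.9% and 94.0% of the genes with values, while Tbx4, Vmn2r1 and Gm42951 are near the middle, at 57.8%, 55.8% and 41.2%. In GENCODE M21, Ebf1 and Hivep3 each overlap 1 other annotated gene and Gm46392 overlaps 4, none of which had values of its own. The libraries keep strand, but whether the counting used it is not stated, so reads of such genes cannot be told apart from those of the 3 long genes.

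The marker genes matched the labelled cell type. All 8 embryonic stem cell markers searched, among them Pou5f1, Nanog and Esrrb, had values, and 2 were higher and 3 lower with mutated than with wild-type CTCF, where 34.7% of all tested genes passed. Of the lower ones, Pou5f1 (-0.19, adjusted p = 0.016, limma) lost its call without a trend and with DESeq2. It also lost it without the second wild-type or the first mutated library (-0.10 in each). Nanog lost its call without a trend (adjusted p = 0.059, limma). Zfp42, the third lower one at -0.19, and Klf4, higher by 0.28, kept their calls under each alternative run. With single libraries left out, Zfp42 ran from -0.21 to -0.18 and Klf4 from 0.24 to 0.33. With IAA in the control line 2 of the 8 rose and 3 fell, against 37.7% of all tested genes. They had a sum of 49547 to 60146 normalized reads per library. None of the 5 fibroblast markers had values, and of 5 B-lineage markers only Pax5 did. It measured 26.7 and 25.9 normalized reads in the untreated control, 25.01 and 27.5 with IAA, 42.8 and 54.6 with wild-type CTCF and 40.7 and 42.5 with mutated CTCF. It was higher than in the control with IAA by 0.86 with wild-type and 0.65 with mutated CTCF (adjusted p = 0.0052 and 0.032, limma; 31.6% and 34.3% of all tested genes passed), and did not pass between the CTCF forms (adjusted p = 0.53, limma). The wild-type call was lost without the second wild-type library and with DESeq2 (adjusted p = 0.11), and the mutated one without any 1 library of either group compared, with edgeR (adjusted p = 0.06) and with DESeq2 (adjusted p = 0.3). The trophectoderm markers, with values for Tfap2c and Krt8 of 5 searched, summed to 810 to 893 in the wild-type CTCF libraries against 579.9 to 607 with mutated CTCF, 609 to 634 in the control with IAA and 565 to 573 without. That sum is nearly all Tfap2c, at a mean of 837 with wild-type and 573 with mutated CTCF, and Krt8 ran the other way, at 13.9 against 20.8, without passing. The primed epiblast markers, with values for Otx2 and Dnmt3b of 3 searched, summed to 711 to 794 with wild-type CTCF, 606 to 622 with mutated CTCF, 674 to 682 in the control with IAA and 542 to 558 without. Of 6 primitive endoderm markers 3 had values, Gata4, Gata6 and Pdgfra, and 0 of these passed between the CTCF forms with limma, edgeR or DESeq2 or at an unadjusted p under 0.05. Of 4 neural markers Nes and Pax6 had values, and Nes was higher with mutated CTCF (0.27, adjusted p = 0.043, limma). That call was lost when either untreated library, the second wild-type library (0.17) or either mutated library was left out. Of 3 mesoderm markers 1, brachyury, had values, under the minimum for a test. It was at 8.74 and 10.7 with wild-type CTCF and 2.38 to 5.50 in the other libraries. Every gene with values had at least 10 reads, as recovered from the values, in at least 2 libraries. Brachyury had 10 in each wild-type CTCF library and 2 to 6 in the others. It was therefore listed only through the group where it was high, and nothing is read from its difference. With IAA in the control line, Pdgfra rose by 1.78, Gata4 by 0.64 and Nes by 0.48 (adjusted p = 7.7e-09, 0.00036 and 0.00039, limma). Gata6 fell by 0.59 (adjusted p = 0.024, limma), a call lost without the second untreated (-0.34) or the first treated library (-0.36). Dnmt3b rose by 0.39 (adjusted p = 2.4e-05, limma) and Otx2 fell by 0.48 (adjusted p = 0.047, limma), the latter a call lost when any 1 of the 4 control libraries was left out (-0.34 without the first untreated one). The primitive endoderm markers summed to 186 to 216 in the untreated control and 262 to 305 with IAA, and the neural ones to 156 to 159 and 221 to 223. With wild-type and mutated CTCF these were 214 to 242 and 239 to 246 for primitive endoderm and 223 to 263 and 274 to 284 for the neural markers. Between the untreated and treated control the stem cell, trophectoderm, epiblast, primitive endoderm and neural sums did not overlap. How many of all genes did not overlap there was not counted. Between the CTCF forms the sums of trophectoderm, epiblast and neural markers, brachyury and Pax5 did not overlap. Neither did 65.5% of all tested genes, so nothing is read from these counts. The part of the markers in the differences below was not tested. In these bulk libraries fewer cells making a transcript and less transcript per cell cannot be told apart.

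CTCF acts through its DNA motif, so the letters that resemble it near the 6 genes are shown. The 12-letter core consensus of CTCF, searched on both strands within 50 kb on each side of each annotated gene start, occurred near Hivep3, Tbx4 and Vmn2r1 once each, near Gm46392 at 2 places, and near Ebf1 and Gm42951 at none. Of the 16917 genes found in the annotation, 53.7% had at least 1 match in the same window. The matches are printed 5′ to 3′ on the strand of the motif (GRCm38), with the core in capitals and 10 flanking bases on each side.
Gm46392, chr13:38668703-38668714, minus strand: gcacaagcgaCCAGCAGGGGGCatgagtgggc
Gm46392, chr13:38668723-38668734, minus strand: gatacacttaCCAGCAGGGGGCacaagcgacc
Hivep3, chr4:119748473-119748484, plus strand: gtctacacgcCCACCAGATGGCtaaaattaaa
Tbx4, chr11:85891285-85891296, minus strand: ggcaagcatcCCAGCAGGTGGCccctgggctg
Vmn2r1, chr3:64039903-64039914, plus strand: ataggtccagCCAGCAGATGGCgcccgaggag
The Gm46392 matches lay 41345 and 41325 bases upstream of the gene start, outside the gene. The Hivep3 match lay 14695 bases and the Tbx4 match 4869 bases downstream of the start, inside the gene, and the Vmn2r1 match lay 41638 bases upstream. TT-seq does not measure binding, so a match is a string of letters and not a shown CTCF site.

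Promoter sequences, from 250 bases before to 50 after a RefSeq start (GRCm38.p6), were held for 5 of the 6 genes, with 2 starts for Ebf1. Those of Ebf1 and Vmn2r1 are printed with each CG pair in capitals, since these genes had the largest difference in each direction.
Ebf1, chr11:44617850-44618149, plus strand: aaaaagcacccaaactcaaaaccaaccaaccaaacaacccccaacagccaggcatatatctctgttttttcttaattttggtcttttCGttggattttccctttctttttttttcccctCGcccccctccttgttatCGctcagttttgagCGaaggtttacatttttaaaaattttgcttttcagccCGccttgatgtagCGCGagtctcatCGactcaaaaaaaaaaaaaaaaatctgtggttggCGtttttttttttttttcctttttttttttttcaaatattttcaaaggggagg
Vmn2r1, chr3:64081392-64081691, plus strand: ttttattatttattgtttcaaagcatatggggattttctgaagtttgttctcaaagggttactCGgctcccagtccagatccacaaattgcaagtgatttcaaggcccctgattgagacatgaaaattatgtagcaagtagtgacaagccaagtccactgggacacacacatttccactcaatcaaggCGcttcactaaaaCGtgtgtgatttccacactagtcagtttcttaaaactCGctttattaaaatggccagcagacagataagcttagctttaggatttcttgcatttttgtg
The Ebf1 window held 9 CG pairs and the Vmn2r1 window 4, against a median of 7 over 32851 promoters of that length. The second Ebf1 start had 17, Hivep3 11, Tbx4 8 and Gm46392 6. Shorter words that make up the end of the core were searched on both strands of these windows. The first word was AGGGGGC, the second was AGGTGGC, the third was AGAGGGC, and the fourth was AGATGGC. Of the 6 promoter windows only that of Tbx4 held any of the 4 words, as did 27.6% of all promoters. Apart from that of Vmn2r1, the windows, including both of Ebf1, begin inside the gene as GENCODE annotates it, whose start lies further upstream.

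The genes divided evenly by direction. Ebf1, Hivep3 and Tbx4 had more nascent RNA with wild-type than with mutated CTCF, and Vmn2r1, Gm42951 and Gm46392 had less. The wild-type and mutated libraries did not overlap in any of the 6, nor in 65.5% of all tested genes. By absolute log2 fold change between the CTCF forms they stood at places 6 to 136 of the 15818 tested genes, of which 618 (3.91%) had a difference of at least 1 on the log2 scale.

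Ebf1 lies at chr11:44617317-45008091 on the plus strand and spans 391 kb. Its nascent RNA was 548 and 555 normalized reads in the control without IAA, 655 and 662 with IAA, 1206 and 1193 with wild-type CTCF, and 240.3 and 248 with mutated CTCF. The 4 groups did not overlap, and the wild-type CTCF libraries were highest and the mutated ones lowest. The wild-type mean of 1199 ± 9.01 was 4.91 times the mutated mean of 244 ± 5.54 (SD, n = 2 each). Against the control with IAA, wild-type CTCF stood 0.86 higher and mutated CTCF stood at -1.43 on the log2 scale, so the forms lay on opposite sides of that control and also of the untreated control.

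Hivep3 lies at chr4:119733784-120138045 on the plus strand and spans 404 kb. It measured 214 and 188 normalized reads in the control without IAA, 422 and 383 with IAA, 324 and 333 with wild-type CTCF, and 99.3 and 95.9 with mutated CTCF. Its order differed from that of the other 5 genes, because both CTCF lines lay below the control with IAA. The wild-type CTCF level, 329 ± 5.92 (SD, n = 2), lay between the untreated and the treated control, while the mutated CTCF level, 97.6 ± 2.38 (SD, n = 2), lay below both. On the log2 scale these were differences from the control with IAA of -0.29 and -2.03.

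Tbx4, at chr11:85886422-85916097 on the plus strand, rested on the fewest reads of the 6. It measured 36.8 and 37.1 normalized reads without IAA, 51.2 and 40.7 with IAA, 67.3 and 84.5 with wild-type CTCF, and 23.0 and 28.7 with mutated CTCF. The order of the groups was that of Ebf1, again with no overlap, but each library held only 22 to 79 recovered reads of it and the wild-type CTCF replicates spread widely around their mean of 75.9 ± 12.2 (SD, n = 2). The log2 difference between mutated and wild-type CTCF was -1.52, and ran from -1.68 to -1.36 when single libraries were left out.

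Vmn2r1, at chr3:64081547-64109484 on the plus strand, showed the largest difference of the 6. It measured 66.9 and 66.4 normalized reads without IAA, 52.4 and 48.4 with IAA, 28.0 and 36.4 with wild-type CTCF, and 189 and 179 with mutated CTCF. The mutated CTCF libraries stood far above all others, and the wild-type ones were lowest. The means of 184 ± 7.19 and 32.2 ± 5.94 (SD, n = 2 each) gave a ratio of 5.72. Against the control with IAA the log2 difference was 1.85 for mutated and -0.64 for wild-type CTCF. Vomeronasal receptors form a large family with close copies, and how reads that match several genes were counted is not stated.

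Gm42951, at chr5:23330370-23347274 on the minus strand, had the same order of groups as Vmn2r1. It measured 118 and 113 normalized reads without IAA, 78.6 and 78.1 with IAA, 49.0 and 50.3 with wild-type CTCF, and 167 and 182 with mutated CTCF. Each step in that order was larger than the difference between replicates, and the ratio of mutated to wild-type CTCF was 3.52. The log2 differences from the control with IAA were 1.14 for mutated and -0.65 for wild-type CTCF.

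Gm46392, at chr13:38710054-38908255 on the plus strand, spans 198 kb. It measured 51.0 and 65.5 normalized reads without IAA, 108 and 102 with IAA, 50.7 and 46.0 with wild-type CTCF, and 164 and 162 with mutated CTCF. Wild-type CTCF libraries were lowest, and the higher of them almost reached the lower untreated library, so these neighbours in the order barely separate. The control with IAA lay between the CTCF forms, with log2 differences from it of 0.63 for mutated and -1.11 for wild-type CTCF.

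**Figure D1:**
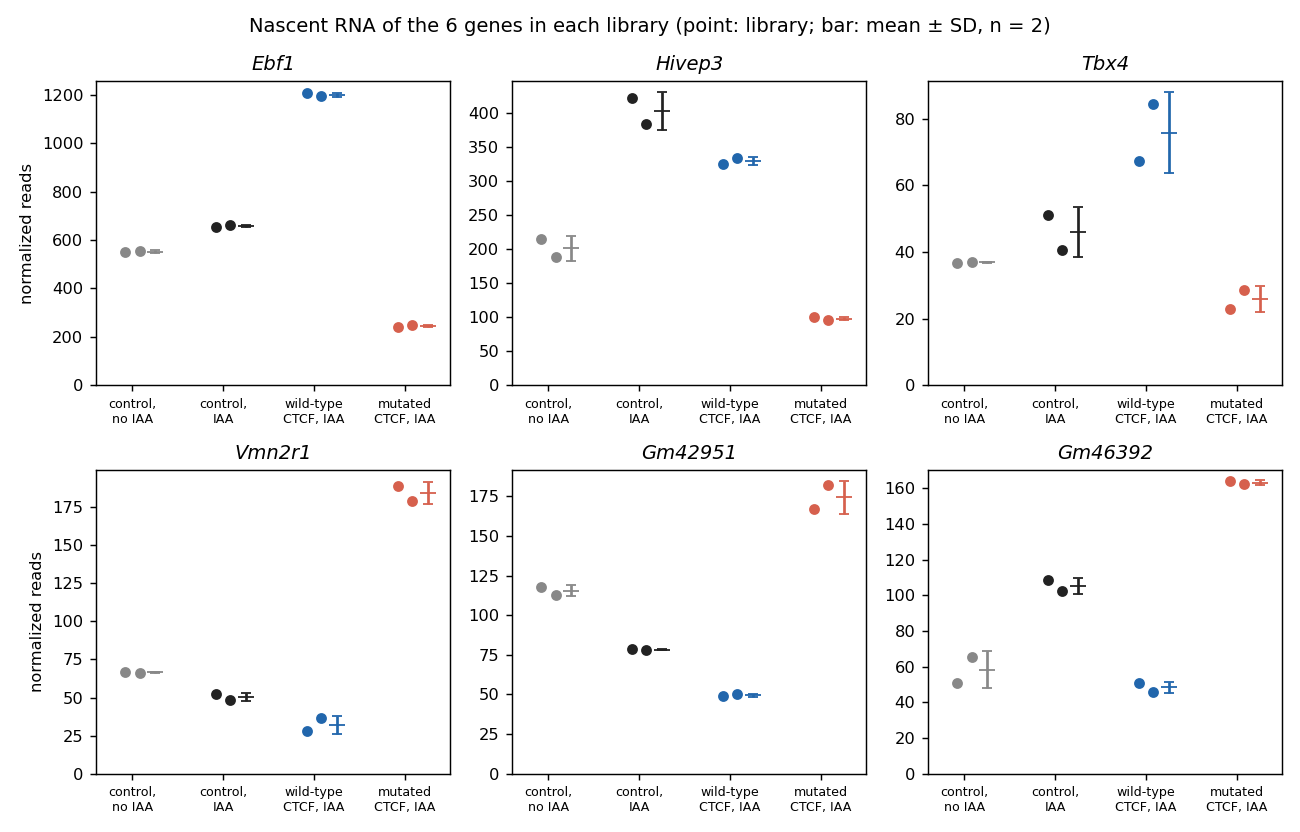
Normalized reads (vertical axis, from 0) of each of the 6 genes in the 4 groups; points are single libraries, and bars beside them the mean ± SD (n = 2). Ebf1, Hivep3 and Tbx4 are lowest and Vmn2r1, Gm42951 and Gm46392 highest in the mutated CTCF libraries.

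Both CTCF libraries of each form lay on opposite sides of both control libraries with IAA in 5 of the 6 genes, and in 1937 of the 15818 tested genes (12.2%). The exception was Hivep3. The choice of genes by the difference between the forms favours this pattern, so nothing is read from the count.

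The response to IAA in the control line shares no library with the difference that chose the genes, and it was tested. IAA changed 4 of the 6 genes at an adjusted p under 0.05, against 37.7% of all tested genes. Hivep3 rose most, with a log2 fold change of 1.00 ± 0.10 (SE) and an adjusted p of 2.7e-10 in the limma fit. Gm46392 rose by 0.85 ± 0.16 (SE; adjusted p = 5.6e-05, limma) and Ebf1 by 0.26 ± 0.068 (SE; adjusted p = 0.0028, limma). Gm42951 was the gene that fell, at -0.55 ± 0.15 on the log2 scale (SE; adjusted p = 0.0033, limma), and its adjusted p was 0.053 with DESeq2 on recovered reads. Tbx4, at 0.30 ± 0.22 (SE; adjusted p = 0.31, limma), and Vmn2r1, at -0.40 ± 0.18 (SE; adjusted p = 0.081, limma), did not pass, and Vmn2r1 passed when libraries were scaled to the same total (adjusted p = 0.04). The Tbx4 value ran from 0.14 to 0.46 when single libraries were left out.

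In 5 of the 6 genes the IAA difference had the sign of wild-type minus mutated CTCF, also where it did not pass the test, as it had in 55.8% of all tested genes. The exception was Gm46392, which rose with IAA and was lower with wild-type than with mutated CTCF, whereas Hivep3 rose with IAA and was higher with wild-type CTCF. For Gm46392 the wild-type CTCF level of 48.4 ± 3.33 (SD, n = 2) stood beside 58.3 ± 10.3 (SD, n = 2) in the untreated control, and for Hivep3 the level of 329 stood between 201 ± 18.4 untreated and 402 ± 27.5 with IAA (SD, n = 2 each). For Ebf1, Tbx4, Vmn2r1 and Gm42951 the wild-type CTCF level lay further from the untreated control than the control with IAA did, in the direction of the IAA difference. The differences of the CTCF lines from the control with IAA share its libraries with the IAA difference, so these levels are set side by side without a test.

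**Figure D2:**
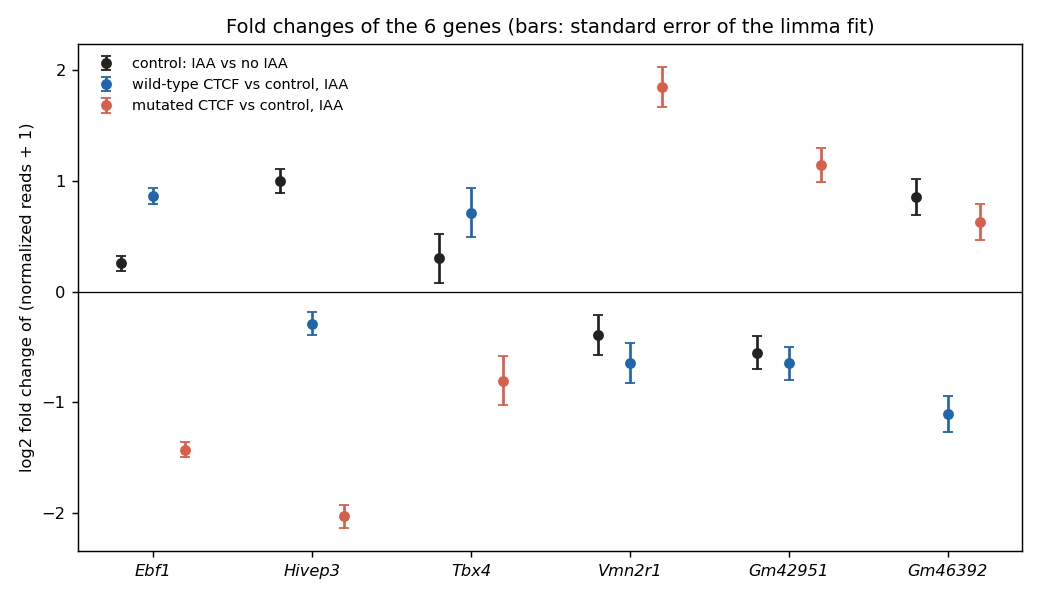
Log2 fold changes (vertical axis; bars, standard error of the limma fit) of the 6 genes for IAA in the control line and for wild-type and mutated CTCF against the control, all with IAA. The values for the CTCF lines are descriptive; wild-type and mutated CTCF lie on opposite sides of 0 for every gene shown except Hivep3, where both are negative.

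CTCF loops can tie neighbouring genes together, so the genes around the 6 were compared between mutated and wild-type CTCF. Within 500 kb, 41 neighbours were tested and 12 passed (29.3%), against 34.7% of all tested genes. Of these 12, 8 were higher and 4 lower with mutated CTCF, and 7 moved in the direction of the gene they neighbour. The median log2 fold change of all 41 was -0.0087, beside -0.0087 over all tested genes. The largest change among the neighbours was -0.82. The count fell to 5 without the first mutated CTCF library and to 4 without a mean-variance trend. With IAA in the control line 11 of the 41 passed (26.8%), 3 higher and 8 lower, against 37.7% of all tested genes.

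Rnf145, a ubiquitin ligase gene 51.8 kb from Ebf1, was the nearest tested neighbour of that gene and moved with it between the CTCF forms. It measured 1909 and 1963 normalized reads in the wild-type libraries, 1520.2 and 1556 in the mutated ones, and 1622 and 1744 in the control with IAA. The difference was -0.33 ± 0.049 (SE; adjusted p = 7.6e-07, limma), with no overlap between the forms. The other nearest gene, 4930597A21Rik, had a mean under 10 and was not tested. No gene on the side of Ebf1 away from Rnf145 had values within 500 kb. Ublcp1, 147 kb away and the only other tested neighbour, did not pass between the forms (-0.038, adjusted p = 0.72, limma). With IAA in the control line Rnf145 did not pass (-0.017, adjusted p = 0.82, limma). Ublcp1 fell by 0.22 there (adjusted p = 0.012, limma), while Ebf1 rose.

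Near Gm42951 the histone-methylation reader gene Kmt2e, 87.2 kb away, moved in the same direction as the noncoding RNA. It measured 5376 and 5306 normalized reads with mutated CTCF against 4185 and 4157 with wild-type CTCF, which gave 0.36 ± 0.036 on the log2 scale (SE; adjusted p = 2e-10, limma). The noncoding 5031425E22Rik, 35.0 kb away, rose by 0.10 ± 0.038 (SE; adjusted p = 0.033, limma), and that call was lost when any CTCF library was left out. Lhfpl3, on the other side, measured 6.60 to 14.0 normalized reads and did not pass. Further away, and named because they passed, Rint1 was lower with mutated CTCF, opposite to Gm42951, at -0.35 ± 0.092 (SE; adjusted p = 0.0026, limma), and Tomm7 higher, at 0.21 ± 0.08 (SE; adjusted p = 0.036, limma). With IAA in the control line Rint1 fell by 0.88 (adjusted p = 2.2e-10, limma), as Gm42951 did. Between the CTCF forms Rint1 and Tomm7 lost their calls without the first mutated CTCF library (-0.22 and 0.12), Rint1 also without the second wild-type one, and Tomm7 without the first wild-type (0.14) or either untreated one.

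Gmps, a guanine nucleotide synthesis gene 59.0 kb from Vmn2r1, was higher with mutated CTCF by 0.17 ± 0.038 (SE; adjusted p = 0.00043, limma), at 4856 and 4702 normalized reads against 4187 and 4284. E130311K13Rik, 152 kb away and named because it passed, was higher by 0.52 ± 0.12 (SE; adjusted p = 0.00047, limma). The receptor gene Vmn2r3, 148 kb away on the other side, did not pass between the forms, at -0.54 ± 0.39 (SE). That change ran from -0.77 to -0.31 when single libraries were left out. With IAA in the control line Vmn2r3 rose from 5.02 and 5.17 to 17.9 and 17.6 normalized reads (log2 fold change 1.62, adjusted p = 0.00081, limma). Gm26850, the remaining nearest neighbour, measured 8.56 to 20.9 normalized reads and did not pass.

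Around Hivep3, the forkhead gene Foxj3, 105 kb away, was higher with mutated CTCF by 0.11 ± 0.031 (SE; adjusted p = 0.0044, limma), opposite to Hivep3, and lost its call without the first mutated CTCF library. Named because they passed, Zmynd12 at 0.61 ± 0.17 and Ccdc30 at 0.34 ± 0.079 were also higher with mutated CTCF (SE; adjusted p = 0.0039 and 0.00084, limma), and Ppih was lower at -0.15 ± 0.06 (SE; adjusted p = 0.046, limma). With IAA Zmynd12 fell by 0.75 (adjusted p = 0.00038, limma), while Hivep3 rose. Between the CTCF forms Zmynd12 lost its call without the second wild-type library (0.37) or the first mutated one, Ppih when any library but the first wild-type one was left out (-0.079 without the second wild-type one), and Ccdc30 under no alternative run. Guca2a, Foxo6 and Scmh1, the other nearest genes, did not pass, with log2 fold changes of 0.06 to 0.58. With single libraries left out, Guca2a ran from 0.17 to 0.98 and Foxo6 from 0.04 to 0.28. Around Tbx4 none of the 6 tested neighbours passed with limma, edgeR or DESeq2, and 0 had an unadjusted p under 0.05 in limma. Tbx2, a T-box gene 44.5 kb away, measured 21.9 and 18.2 normalized reads in the wild-type libraries and 14.6 and 14.8 in the mutated ones (-0.41 ± 0.34 on the log2 scale, SE). Around Gm46392 the 3 nearest tested genes, Slc35b3, Eef1e1 and Bloc1s5, did not pass, though Slc35b3 at -0.16 passed with either other scaling, the replicate block and edgeR (adjusted p = 0.043 to 0.048), and 5033403F01Rik was too low to test. Bmp6, a bone morphogenetic protein gene 209.8 kb away, was the 1 neighbour of Gm46392 that passed, at -0.82 ± 0.23 (SE; adjusted p = 0.0043, limma), with mutated CTCF libraries at 21.9 and 41.5 normalized reads, and it was named after its value was seen. Without the first of these libraries its change was -0.38 and did not pass.

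**Figure D3:**
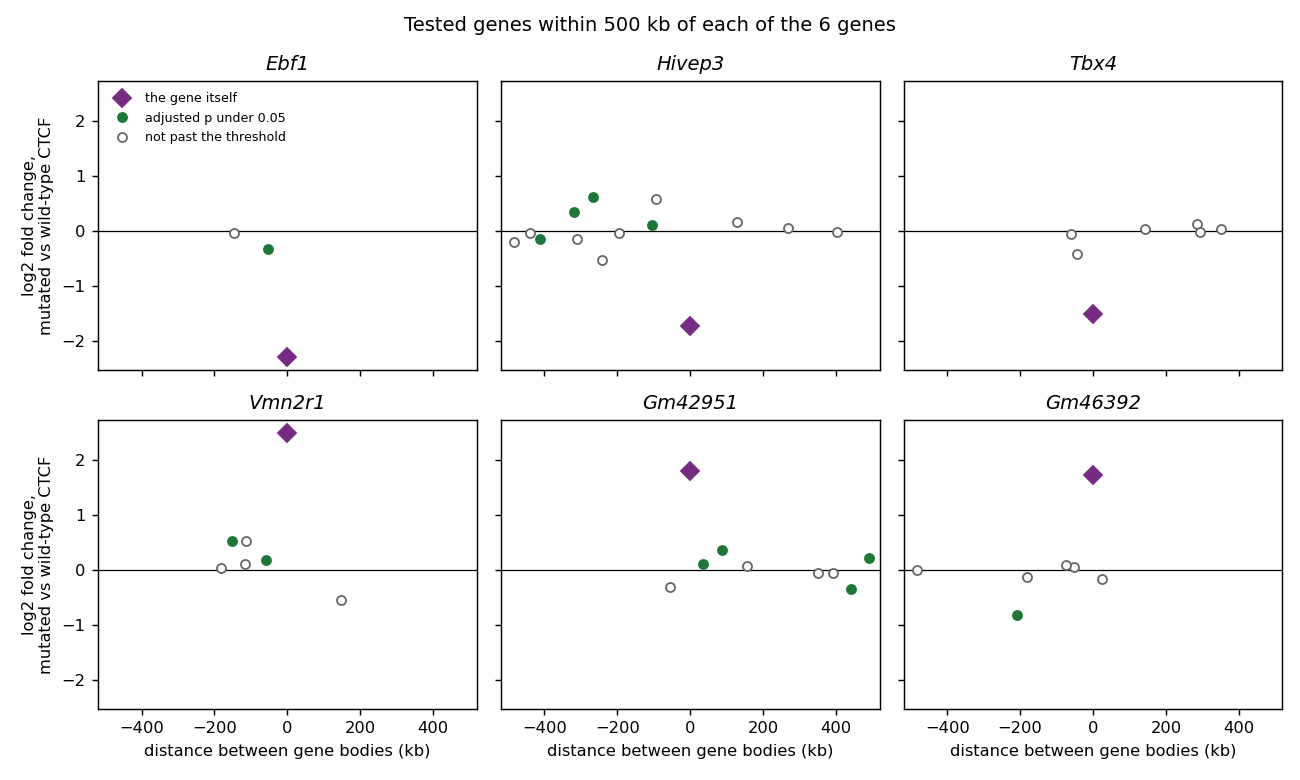
Log2 fold change between mutated and wild-type CTCF (vertical axis) of each of the 6 genes (diamond, at 0) and of the tested genes within 500 kb, by distance between gene bodies in kb (horizontal axis, negative to the left on the chromosome); filled circles passed an adjusted p of 0.05. The 6 genes were chosen for this difference, and each lies farther from 0 than its neighbours, which the choice favours.

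The relatives of the 4 coding genes are listed by family, and the gene itself is left out of each count. Each count of genes past the threshold between the CTCF forms, here and in the lists after it, stands against 34.7% of all tested genes, and each count with IAA in the control line against 37.7%. Both tested EBF genes were lower with mutated than with wild-type CTCF. Ebf4 measured 93.5 and 81.3 normalized reads in the wild-type libraries and 53.3 and 59.3 in the mutated ones (-0.62 ± 0.16 on the log2 scale, SE; limma adjusted p = 0.0028). Ebf2 measured 28.0 and 35.3 against 12.5 and 22.7 (-0.86 ± 0.30, SE; adjusted p = 0.022, limma), and its change was -0.45 and not past the threshold without the first mutated CTCF library, and it was lost without the second wild-type one too. Neither EBF gene passed with DESeq2 on recovered reads (adjusted p = 0.06 for Ebf4 and 0.21 for Ebf2). Ebf3 was too low to test. With IAA in the control line Ebf2 also rose, by 0.95 (adjusted p = 0.01, limma), a call lost without the second untreated or the first treated library.

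Hivep1 and Hivep2, the paralogs of Hivep3, were both lower with mutated CTCF. Hivep1 measured 2901 and 3069 normalized reads with wild-type and 2598 and 2632 with mutated CTCF (-0.19 ± 0.041, SE; adjusted p = 0.00028, limma). Hivep2 measured 1221 and 1284 against 1069 and 1053 (-0.24 ± 0.054, SE; adjusted p = 0.00061, limma). Hivep2 rose with IAA by 0.36 (adjusted p = 1e-06, limma).

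Of 9 tested T-box genes besides Tbx4, 3 were lower and 2 higher with mutated CTCF, with a median of -0.08. Tbx18, known from the heart and ureter, measured 99.7 and 95.2 normalized reads with wild-type and 43.9 and 51.4 with mutated CTCF (-1.02 ± 0.19, SE; adjusted p = 3.1e-05, limma). Eomes, a regulator of early mesendoderm and trophoblast, measured 80.4 and 82.4 against 38.7 and 54.4 (-0.81 ± 0.21, SE; adjusted p = 0.0027, limma). Tbx15 was lower by a log2 fold change of -0.27 and Tbx3, a stem cell factor, higher by 0.17 (adjusted p = 0.018 and 0.00051, limma). The calls of Eomes and Tbx15 were lost without the first mutated CTCF library (-0.57 and -0.16). That of Tbx15 was also lost without the second wild-type one (-0.21). With IAA in the control line, 2 of the 9 rose and 2 fell, where 37.7% of all tested genes passed, among them Tbx15, which rose by 0.53, and Tbx18, which fell by 0.56 (adjusted p = 9e-06 and 0.014, limma). The call of Tbx18 was lost without either untreated library or the second treated one (-0.39).

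Of 6 tested type 2 vomeronasal receptor genes besides Vmn2r1, 2 were higher and 0 lower with mutated CTCF, with a median of -0.26, below the -0.0087 of all tested genes. At an unadjusted p under 0.05 limma had 1 lower, and edgeR and DESeq2 called 0 lower. Vmn2r90 measured 52.2 and 55.4 normalized reads with mutated and 21.9 and 35.3 with wild-type CTCF (0.93 ± 0.23, SE; adjusted p = 0.0013, limma). Vmn2r27 measured 61.6 and 52.4 against 33.2 and 41.7 (0.60 ± 0.20, SE; adjusted p = 0.016, limma). Both calls were lost without the first wild-type CTCF library (0.59 for Vmn2r90 and 0.44 for Vmn2r27). That of Vmn2r27 was also lost without the first mutated one (0.48). The larger change of Vmn2r1 itself was part of its selection.

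**Figure D4:**
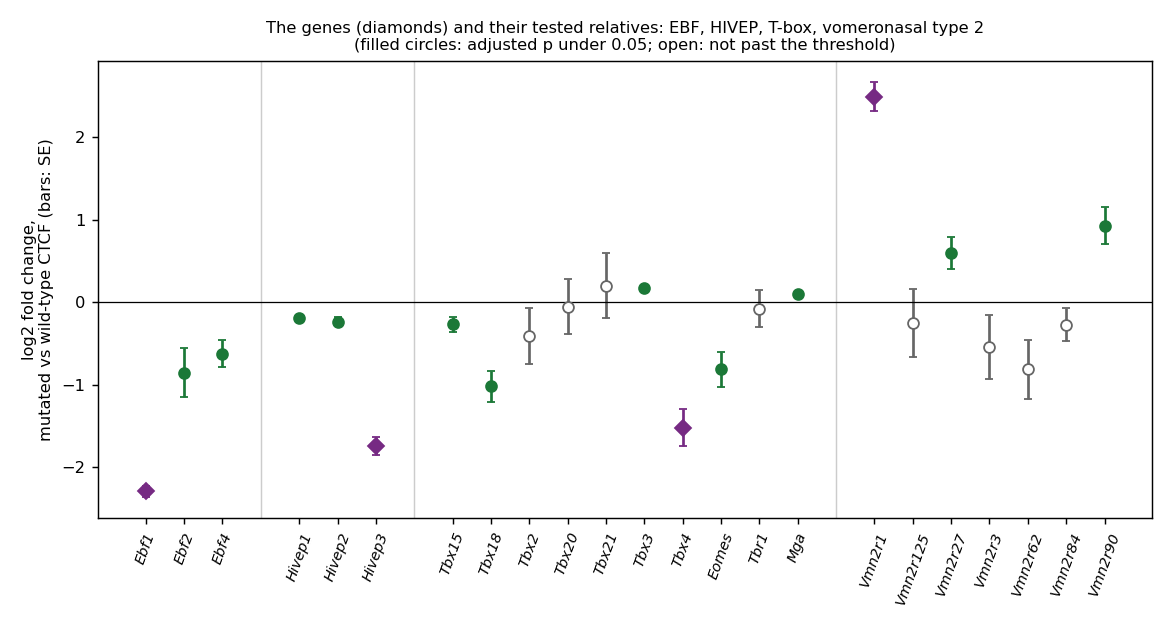
Log2 fold change between mutated and wild-type CTCF (vertical axis; bars, standard error) of Ebf1, Hivep3, Tbx4 and Vmn2r1 (diamonds) and their tested relatives (circles; filled where the adjusted p was under 0.05). The tested EBF and HIVEP relatives lie below 0, and the T-box and vomeronasal relatives lie on both sides.

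Partners and targets of the coded proteins were read as lists. Of 8 tested EBF1 partners and B-lineage genes, 2 were higher and 3 lower with mutated CTCF, with a median of -0.14, and with IAA 2 rose and 2 fell, against 37.7% of all tested genes. Zfp423, whose protein binds and inhibits EBF1, measured 98.2 and 109 normalized reads with mutated and 189.7 and 167 with wild-type CTCF (-0.78 ± 0.12, SE; adjusted p = 1.5e-06, limma). It had also fallen with IAA in the control line, from 398 and 342 to 177 and 158 (-1.13, adjusted p = 2.3e-10, limma). Vpreb1, a part of the pre-B-cell receptor, measured 23.0 and 27.7 with mutated and 10.5 and 10.7 with wild-type CTCF (1.18 ± 0.33, SE; adjusted p = 0.0045, limma), opposite to Ebf1, and its adjusted p was 0.084 with DESeq2. The 3 E-protein genes did not share a direction. Tcf3 and Tcf12 were lower by log2 fold changes of -0.24 and -0.18 (adjusted p = 0.014 and 1e-05, limma). Tcf3 lost its call without the first mutated (-0.15) or the second wild-type CTCF library (-0.14). Tcf4, named after its value was seen, was higher by 0.07 (adjusted p = 0.047, limma), at 15258 and 15767 normalized reads against 14761 and 14703, a call lost when any library other than the 2 untreated ones was left out.

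Of 7 tested genes of the HIVEP3 pathway, 1 was higher and 2 lower with mutated CTCF, with a median of 0.07, and with IAA 1 fell, against 37.7% of all tested genes. Wwp1, the ubiquitin ligase that HIVEP3 recruits to RUNX2, was higher by 0.17 ± 0.032 (SE; adjusted p = 4.8e-05, limma), at 8988 and 8819 normalized reads against 7899 and 7939. Rps6ka3, a kinase of the osteoblast programme, was lower by -0.22 ± 0.042 on the log2 scale (SE; adjusted p = 4.8e-05, limma). Nfkb1 was at -0.17 with an adjusted p of 0.047 in limma, a call lost without either untreated library, the first wild-type library (-0.12) or either mutated library, and with DESeq2 (adjusted p = 0.2). Runx2 itself measured 11.4 to 26.7 normalized reads and did not pass.

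The other lists hardly reached testable levels. Of 7 limb and lung genes around TBX4, 2 were tested, and 0 passed between the CTCF forms with limma, edgeR or DESeq2, with 1 at an unadjusted p under 0.05 in limma. Of these, Fgf10, a growth factor of limb and lung buds, rose with IAA by 0.35 (adjusted p = 0.00014, limma). Of 5 vomeronasal signalling genes, the G protein genes Gnao1 and Gnai2 were tested, and 0 passed between the CTCF forms with limma, edgeR or DESeq2, with 1 at an unadjusted p under 0.05 in limma. Gnai2 rose with IAA by 0.33 (adjusted p = 3.3e-05, limma).

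As a description, the genes whose log2 levels ran most like each of the 6 over the 8 libraries were ranked by Pearson's r among genes with a mean of at least 50. All points share the 4 groups, so r is set by group differences. For Ebf1 these were Gm15398, Pramel3 and Gask1b, with r from 0.993 to 0.999. Gm15398, a noncoding RNA on another chromosome, measured 481 and 501 normalized reads untreated, 539.6 and 524 with IAA, 709.9 and 694 with wild-type CTCF, and 332 and 334 with mutated CTCF, the same order of groups as Ebf1 over a smaller range. For Hivep3 they were Steap3, Greb1l and Sfmbt1 (r from 0.983 to 0.995), and Steap3, a metalloreductase gene, shared the rise with IAA to 914 and 891 from 586 and 583 and the low level of 374 and 403 with mutated CTCF.

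For Tbx4 the most alike were Pof1b, Pfkl and Ap1s2 (r from 0.981 to 0.990), and for Vmn2r1 they were Dgki, Mat2b and Wwox (r from 0.991 to 0.994). Gm42951 ran with Smc5, Gm43803 and Clic4 (r from 0.989 to 0.996), and Gm46392 with Ypel5, Wwp1 and Sil1 (r from 0.984 to 0.989). Wwp1, of the HIVEP3 list above, is therefore also among the genes most like Gm46392. Among the 6 themselves r was highest between Vmn2r1 and Gm42951, at 0.954, and between Ebf1 and Tbx4, at 0.950, and lowest between Ebf1 and Vmn2r1, at -0.986.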

How the data were processed

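TT-seq libraries of 8 samples in 4 groups were analysed from the authors' deposited table of normalized read counts, a signal per gene and library. Per the submitters' processing notes, Trim Galore, STAR, featureCounts, DESeq2 and mm10 were used; their versions, the counted feature, the strand setting and the annotation are not given in the sources used here. All values were whole multiples of 1 step per library, within 0.01 read, which gave 15671114 to 21561141 recovered reads per library; 1 read was worth 0.836 to 1.19 normalized reads. For the second mutated CTCF library this step lies close to 1, and the reads serve only the alternative count tests.

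limma 3.58.1 (R 4.3.3) was fitted to log2(value + 1) of all 8 libraries with a mean-variance trend (4 residual degrees of freedom), over genes with a mean of at least 10, with Benjamini-Hochberg adjustment over 15818 genes and a threshold of 0.05. Fold changes on that scale understate the change of low genes. Positions are from GENCODE M21 (GRCm38, the build named as mm10), in which 16917 gene IDs were found.

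The genes and lists were chosen with earlier results of these data known. Named genes were the 6 genes, the 2 nearest listed genes on each side within 500 kb, the 3 most alike by r, and, of each list, up to 4 genes past the threshold by size. Lists cover families, partners of each protein, and markers of stem cells, primitive endoderm, trophectoderm, primed epiblast, neural, mesoderm, fibroblast and B-lineage cells. The Ctcf gene was not analysed here. Both motif searches were chosen after the data were seen, the short words first. Alternatives were other pseudocounts (0.5, 10), testing every gene or those with a mean of at least 50, scaling by median of ratios or to equal totals, a fit without the other groups, no trend, the replicate number as a block, each library left out, and edgeR 4.0.16 and DESeq2 1.42.0 on recovered reads.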

Additional observations from a re-analysis of the deposited data

Results flagged for a closer look

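Of the 6 genes, 5 had both wild-type CTCF libraries on one side of both control libraries with IAA and both mutated CTCF libraries on the other; the difference was not tested, because it chose the genes. The log2 fold changes of mutated against wild-type CTCF were -2.29 for Ebf1, -1.52 for Tbx4, 2.49 for Vmn2r1, 1.79 for Gm42951 and 1.73 for Gm46392.

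The same pattern held for 10 of 69 genes (14.5%), taken as the tested nearest neighbours and all tested list genes, against 12.2% of all tested genes. Among the neighbours, Rnf145 was at -0.33, Gmps at 0.17 and Kmt2e at 0.36. It also held for E130311K13Rik, at 0.52, which was named because it differed between the forms and is not in that count. Among list genes, Vmn2r90 was at 0.93, Wwp1 at 0.17, Nfkb1 at -0.17 and Mga at 0.10. Among markers of other cell types or states, Otx2 was at -0.73, Tfap2c at -0.55 and Dnmt3b at -0.25. Dnmt3b was at -0.17 and lost its call in limma's test of mutated against wild-type CTCF without the second wild-type library (adjusted p = 0.14) and also lost it without a trend (adjusted p = 0.063), and Otx2 lost its call with DESeq2 (adjusted p = 0.064).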

How the results depend on the processing

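Of 1751 single-gene values recomputed under alternatives, 1606 stayed on the same side of the threshold or within the replicate spread. Of the others, 121 lost and 5 gained a call, and 19 moved beyond that spread. No call turned its direction. The change of Eef1e1 between the CTCF forms, which did not pass, ran from -0.014 to 0.11 when single libraries were left out. Hivep3, Gm46392 and Ebf1 kept their calls with IAA under each alternative run, with highest adjusted p of 0.0016, 0.01 and 0.034; Tbx4 passed under none, its adjusted p running from 0.2 to 0.75. The number of genes called with IAA in the control line was 5967, and 3946 without a mean-variance trend, 3968 with DESeq2 and 4284 to 6271 with single libraries left out. For wild-type CTCF against the control it was 4991, and 2379, 2739 and 3274 to 5079; the lowest was without the second wild-type CTCF library. For mutated CTCF against the control it was 5433, and 3228, 3135 and 3963 to 5769, and for mutated against wild-type CTCF 5489, and 3263, 3447 and 3969 to 5461. Of the wild-type CTCF calls 3407 were higher and 1584 lower, against 2548 and 2513 with median-of-ratios scaling. Of the mutated CTCF calls 3473 were higher and 1960 lower, against 2706 and 2682 with that scaling. Of the IAA calls in the control line 3062 were higher and 2905 lower, against 2569 and 4098 with equal totals. The 12 neighbours called became 4 without a trend, 7 with DESeq2, 6 of 23 within 200 kb, 26 of 91 within 1000 kb and 5 to 11 with single libraries left out. The cause was not tested. Without a trend, Gmps, Tbx3, Hivep2, Tcf12 and Wwp1 also lost their calls between the CTCF forms (adjusted p 0.081, 0.059, 0.054, 0.054 and 0.051). So did Ebf2 (0.077), Rint1 (0.097), Tomm7 (0.13), Zmynd12 (0.051), Ppih (0.15), Bmp6 (0.10), Foxj3 (0.14), Eomes (0.085), Tbx15 (0.12), Tcf3 (0.14), Tcf4 (0.32), Pou5f1 (0.23), Nes (0.060) and 5031425E22Rik (0.13), and with DESeq2 Tomm7 (0.15), Zmynd12 (0.074), Ppih (0.16), Bmp6 (0.094), Tbx15 (0.12), Tcf3 (0.081), Pou5f1 (0.064), Nes (0.21), 5031425E22Rik (0.064) and Vmn2r27 (0.15). Tcf4 also lost its call with a pseudocount of 10 (0.0501) and with a minimum mean of 50 (0.052). Of the IAA calls, Gata6 and Ebf2 were lost without a trend (0.11 and 0.054), and Gata6, Ebf2, Tbx18 and Otx2 with DESeq2 (0.16, 0.11, 0.15 and 0.24). Nfkb1 also missed the threshold without a trend (0.084), with no filter (0.0501) and when fitted on the CTCF libraries alone (0.094), as did Tomm7 (0.082), Ppih (0.082), Nes (0.064) and Tbx15 (just above 0.05) in that last fit. Gene by gene, same-numbered replicates did not deviate together (mean r 0.0037 over 6 pairs). A correlation is blind to an offset in scale between libraries, so it does not tell whether the numbers pair the samples. The median-of-ratios factor was higher in the second than in the first library of each group. It was 0.978 and 0.997 in the untreated control and 0.976 and 0.996 with IAA. With wild-type CTCF it was 1.007 and 1.044, and with mutated CTCF 1.007 and 1.036. With the replicate block the counts were 6423, 5532, 5920 and 5981, each higher than without it, with 13 neighbours called. Depth limits Tbx4 most, at 22 to 79 reads, and intervals for reads would cover counting error only.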
